A study of Mus musculus with 18 samples.

Results

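The transcripts of 10 genes that carry out or dampen the integrated stress response were followed in mouse marrow-derived mesenchymal stem cells (MSC). The members were taken by symbol from the deposited gene table, which held 54347 genes: the transcription factors Atf4, Atf5, Atf3 and Ddit3, the transcription cofactor Nupr1, the feedback genes Trib3 and Ppp1r15a, and the effectors Chac1, Sesn2 and Ddit4. The symbol Ddit3 stood on a second row, a short gene model inside Ddit3 that was at 0 in all 18 libraries and was set aside. All 10 members were tested in every comparison.

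All cells were MSC of male C57BL/6J mice, in 6 groups of 3 libraries, each library a separate preparation of its culture condition. Per the study's methods the cells were 1 primary line made in the laboratory from several mice of unstated age, so p-values measure the spread between preparations of that line and not between animals. In the first experiment cells were not transfected and were left untreated (control), or received CK666, which blocks the Arp2/3 complex that branches actin filaments, or cytochalasin D (CytoD), which caps actin filaments. In the second, all cells were transfected: with control siRNA (siControl), with an siRNA to Arp4 (siArp4), or with that siRNA followed by CK666 (siArp4+CK666). The comparisons ask how each disturbance of actin, and the loss of Arp4, a nuclear actin-related protein encoded by Actl6a, changed transcription. CK666 on top of siControl was not analysed here, so the effect of CK666 in transfected cells was read only in knockdown cells.

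In the integrated stress response, kinases that sense unfolded protein in the endoplasmic reticulum, lack of amino acids, lack of heme or viral RNA phosphorylate the alpha subunit of the translation factor eIF2. Most protein synthesis then slows, while the mRNAs of Atf4, Atf5, Ddit3 and Ppp1r15a, which carry short upstream reading frames, are translated better. ATF4 protein pairs with C/EBP factors and switches on further genes, among them Ddit3, Trib3 and Chac1, and Ppp1r15a and Trib3 act back on the response. Much of ATF4 control is translational, so mRNA levels show only part of it.

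ATF4 and C/EBP partners bind composite sites called C/EBP-ATF response elements, so the members' promoters (250 bases before to 50 bases after each RefSeq start, GRCm38.p6) were searched for the letters TGATGNAA, or TTNCATCA on the other strand. The letters were found in the promoters of 4 of the 10 members, and in those of 4.51% of all 27025 genes (3.97% of all 32851 promoters). The 4 are printed because the element is the one through which ATF4 reaches target genes, 5′ to 3′ on each gene's own strand, with the element in capitals. Those of Atf3 (chr1:191183334-191183583, minus strand), Chac1 (chr2:119350992-119351241, plus strand) and Nupr1 (chr7:126625471-126625720, minus strand) are given from 250 bases before the start up to the start. For Trib3 (chr2:152344028-152344057, minus strand) 30 bases are given, since the match lay 15 to 22 bases after the start.

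Atf3: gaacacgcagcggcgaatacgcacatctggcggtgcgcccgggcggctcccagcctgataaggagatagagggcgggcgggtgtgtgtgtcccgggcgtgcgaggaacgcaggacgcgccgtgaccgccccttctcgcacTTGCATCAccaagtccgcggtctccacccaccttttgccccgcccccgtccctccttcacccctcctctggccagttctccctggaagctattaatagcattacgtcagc

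Chac1: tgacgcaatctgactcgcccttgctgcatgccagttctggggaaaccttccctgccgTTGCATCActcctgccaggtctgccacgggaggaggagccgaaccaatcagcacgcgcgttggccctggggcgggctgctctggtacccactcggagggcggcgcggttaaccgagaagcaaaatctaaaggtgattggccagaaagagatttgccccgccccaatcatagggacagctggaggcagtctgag

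Nupr1: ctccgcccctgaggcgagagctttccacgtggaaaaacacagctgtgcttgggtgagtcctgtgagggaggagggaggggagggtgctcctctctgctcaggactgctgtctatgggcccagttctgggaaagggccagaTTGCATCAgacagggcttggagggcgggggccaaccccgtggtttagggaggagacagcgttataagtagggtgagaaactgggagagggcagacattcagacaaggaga

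Trib3: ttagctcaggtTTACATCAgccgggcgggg

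Atf3 and Nupr1 have further annotated starts upstream of the RefSeq start used. In both, the match lay 110 to 103 bases before the start, and in Chac1 193 to 186 bases before it. The cAMP response element TGACGTCA, which ATF and CREB factors bind, stood in the promoters of 2.03% of all genes (1.79% of all promoters). It stood in the promoter of 1 member, Ppp1r15a, 12 to 5 bases before its start. That stretch (chr7:45526269-45526328, minus strand) is printed to show how close the element, in capitals, lies to the start.

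Ppp1r15a: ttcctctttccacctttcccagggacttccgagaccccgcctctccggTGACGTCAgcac

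All 4 members with the C/EBP-ATF letters and 5 of the 6 without them passed the test under CK666, described next. A match is a sequence and not a measured binding site.

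Library totals ran from 18075610 to 24733212 estimated counts. Actl6a was at 906 ± 227 normalized counts (SD, n = 3) in siControl and 42.8 ± 20.6 in siArp4, so the knockdown labels held. Of 10 mesenchymal markers 7 had a mean of at least 100 normalized counts in every group, while Thy1 was at 0 in all libraries. Group means were 9.43 to 54.4 for Eng and 0.28 to 2.94 for Nt5e. The summed level of the 10 was 80376 to 94711 in CK666 libraries against 168260 to 179930 in controls. It was 277350 to 310770 in siArp4 libraries against 94076 to 159200 in siControl and 116240 to 132090 in siArp4+CK666. Means went from 26138 in siControl to 86754 in siArp4 for Col1a1 and from 8724 to 64368 for Col3a1. Those of Cd44 (820 to 537), Vcam1 (2612 to 2185) and Eng (54.4 to 19.7) were lower in siArp4. Of the 8 markers tested, 2 were called higher in siArp4 and none lower. The part of these marker shifts in the values below was not tested. Haematopoietic markers summed to at most 299 and endothelial markers to at most 26.1 in any library. Levels below are counts divided by DESeq2 size factors of all 18 libraries unless a level per length is named. A gene was called where its log2 fold change passed 1 in either direction and its adjusted p from the DESeq2 Wald test was below 0.01, and "rose" and "fell" are used only for calls. In bulk RNA, fewer cells with a transcript and less of it per cell cannot be told apart.

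Before treatment the 2 master factors dominated the group. On a scale of counts per exon length (scaled to the same library total), which allows genes to be compared, Atf5 stood at 388 ± 32.6 and Atf4 at 358 ± 0.33 in control cells (SD, n = 3), and their ranges overlapped. Ddit4, an inhibitor of the growth kinase mTORC1, followed at 86.6 ± 4.96, then Sesn2 at 62.2 ± 3.19 and Ddit3 at 54.7 ± 3.20. Nupr1 was at 32.7 ± 2.13. Trib3 (22.0 ± 2.10), Chac1 (19.5 ± 2.65) and Ppp1r15a (17.3 ± 1.74) came next, and neighbours among these 3 overlapped in range. Atf3 was lowest, at 4.35 ± 0.41. After CK666 the order was another: Ddit3 came first at 1032 ± 204, overlapping Atf4 at 918 ± 107, and Trib3 moved up to 530 ± 28.4, behind Atf5 at 714 ± 39.4. Ddit4 (244 ± 15.4) and Ppp1r15a (219 ± 60.8) overlapped, as did Chac1 (151 ± 2.73) and Sesn2 (131 ± 29.3), and Atf3 was still lowest at 80.3 ± 5.59.

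**Figure D1:**
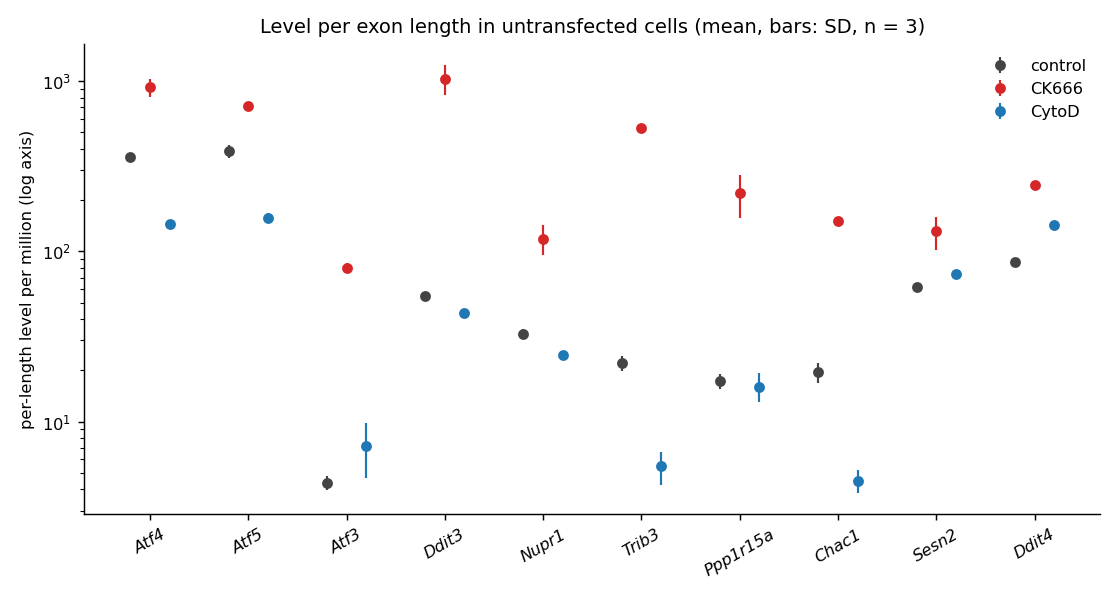
Level of each member per exon length, scaled to the same library total, in control, CK666 and CytoD cells, on a log axis; points are means and bars SD over 3 libraries. Atf5 and Atf4 lead in control cells, and Ddit3 joins them at the top after CK666.

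CK666 raised nearly the whole set. It raised 9 of 10 members and lowered none, where 4.89% of the 14597 genes tested rose and 6.06% fell. The median log2 fold change of the members was 2.48, against 0.01 over all genes tested. Trib3, Ddit3 and Atf3 were the most changed, by 19-fold to 25-fold, and Sesn2 was the least changed of the 9. Only Atf5 stayed short of a call.

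Among the transcription factors, Atf4, the central factor of the response (ENSMUSG00000042406.8, chromosome 15, 80255184 to 80257541), measured 5239, 5086 and 5203 in control libraries and 17507, 11180 and 12838 in CK666 libraries. Every CK666 library lay above every control. The log2 fold change was 1.43 (SE 0.16, adjusted p 9.8e-19). Atf5, its close relative with a role in the mitochondrial stress response (ENSMUSG00000038539.15, chromosome 7, 44812256 to 44816658), went from 4804, 5053 and 4364 to 10038, 7901 and 9093. These groups did not overlap either, and the difference of 0.94 on the log2 scale (SE 0.12, adjusted p 1.64e-14) was just under the fold minimum. Atf5 shares 82 exon bases with Nup62 on the other strand, and the libraries kept no strand.

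Ddit3 encodes CHOP, a C/EBP-type factor tied to cell death under lasting stress (ENSMUSG00000025408.15, chromosome 10, 127290774 to 127296288). Its level was 561, 604 and 560 in controls and 15498, 8502 and 10137 after CK666. All CK666 libraries were far above all controls, at 4.32 on the log2 scale (SE 0.20, adjusted p 4.6e-105), or 20.0-fold. Ddit3 shares 68 exon bases with the oppositely placed Mars, so some counts could be mixed. Atf3, a stress-induced factor of the same leucine zipper class (ENSMUSG00000026628.13, chromosome 1, 191170296 to 191218039), was low in controls, at 64.7, 55.1 and 53.5, and reached 1157, 1071 and 1046. The replicates of each group lay close together and far apart between groups, at 4.25 on the log2 scale (SE 0.23, adjusted p 1.66e-72). Nupr1, a small chromatin-associated cofactor induced by many stresses (ENSMUSG00000030717.9, chromosome 7, 126623249 to 126630861), went from 482, 532 and 497 to 2619, 1444 and 1700, without overlap. Its log2 fold change was 1.95 (SE 0.20, adjusted p 1.22e-20).

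Both feedback genes rose steeply. Trib3, a pseudokinase that binds ATF4 and CHOP and restrains them (ENSMUSG00000032715.9, chromosome 2, 152337422 to 152344032), stood at 259, 296 and 306 in controls and at 8501, 6153 and 6836 after CK666. This was the steepest change of the 10, with no overlap and a change of 4.66 on the log2 scale (SE 0.17, adjusted p 2.35e-169), or 25.2-fold. Ppp1r15a, also called GADD34, directs protein phosphatase 1 to eIF2 alpha and so reopens translation (ENSMUSG00000040435.12, chromosome 7, 45522916 to 45526268). It rose from 305, 341 and 288 to 6105, 3016 and 3367, and CK666 replicate 1 stood well above its partners while all 3 cleared the controls. The log2 fold change was 3.76 (SE 0.25, adjusted p 1.46e-50), and 3.37 without that library. CK666 replicate 1 also stood apart over all genes, with a chi-square per degree of freedom of 107.8 and 67.1 against its partners and 13.9 between them, and with 1.36% of counts on mitochondrial transcripts against 1.88% and 1.85%. Without it 9 members were still called higher, and the part of its lower mitochondrial share in the values was not tested.

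Of the effectors, Chac1, an enzyme that degrades glutathione (ENSMUSG00000027313.3, chromosome 2, 119351229 to 119354381), rose from 217, 205 and 166 to 1750, 1461 and 1496. The groups were well separated, at 3.01 on the log2 scale (SE 0.16, adjusted p 1.24e-78). Ddit4, also called REDD1, which restrains mTORC1 (ENSMUSG00000020108.4, chromosome 10, 59949669 to 59951834), went from 883, 958 and 958 to 3270, 2320 and 2582, a change of 1.56 on the log2 scale (SE 0.14, adjusted p 6.1e-28). Sesn2, a leucine sensor that also restrains mTORC1 (ENSMUSG00000028893.8, chromosome 4, 132492032 to 132510501), went from 1379, 1342 and 1253 to 2432, 3034 and 3026. Neither gene overlapped between groups, and the log2 fold change of Sesn2 was 1.11 (SE 0.12, adjusted p 1.78e-20).

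**Figure D2:**
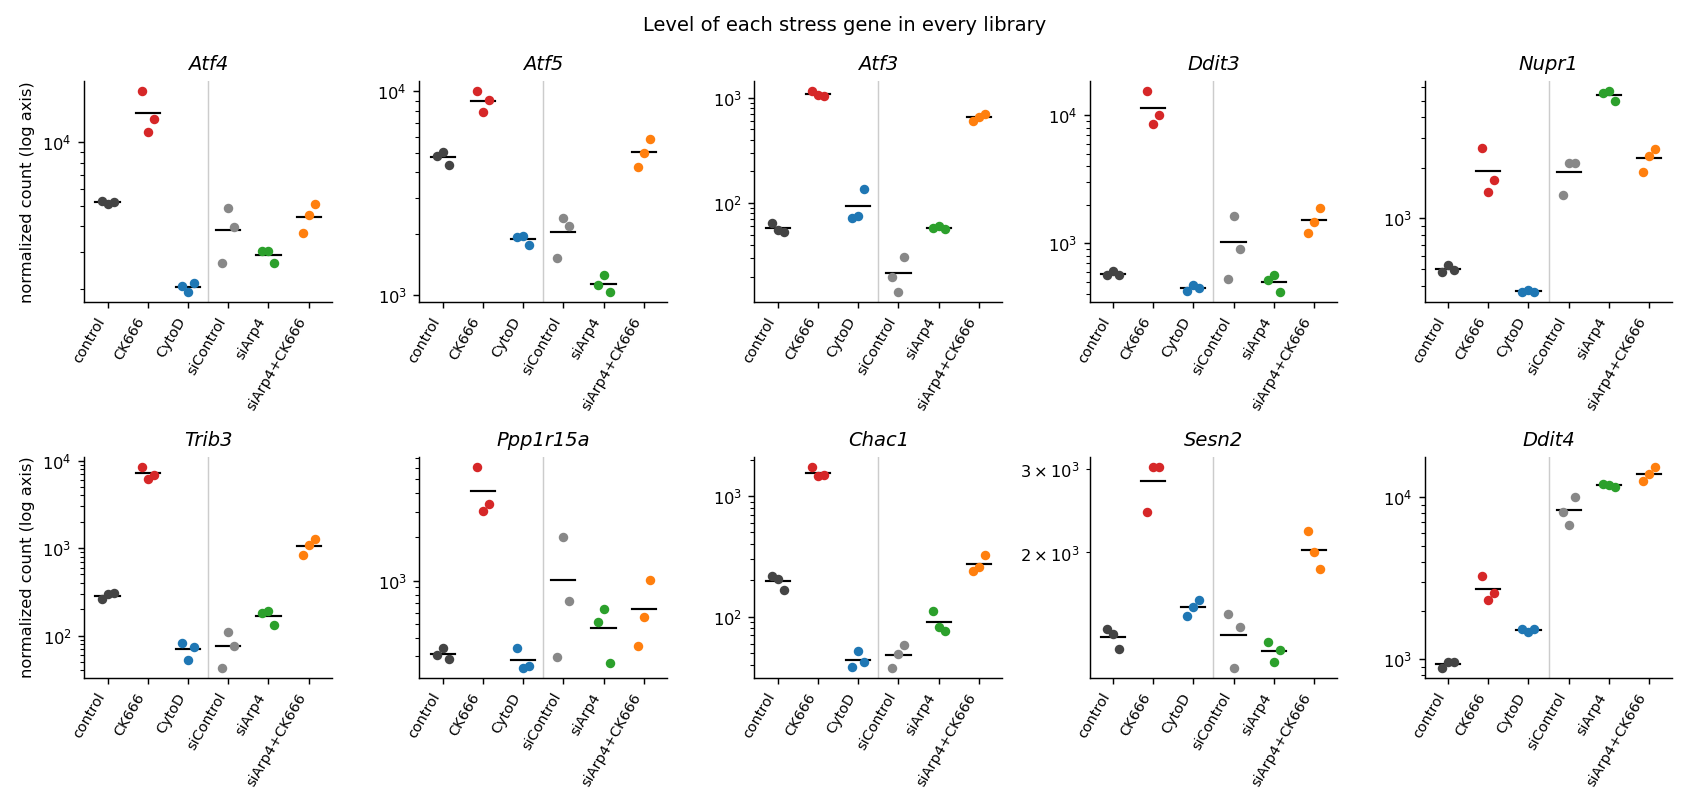
Normalized count of each member in every library, on log axes that differ between panels; points are libraries, black lines are group means, and the grey line divides the untransfected from the transfected experiment. The 3 CK666 libraries lie above the 3 control libraries in all 10 panels. The share of all genes that separate in this way is not given here.

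CytoD did not raise the set. It lowered 4 members, Atf4, Atf5, Trib3 and Chac1, and raised none, where 4.32% of 13717 genes tested fell and 4.8% rose. Atf4 measured 2076, 1937 and 2137 in CytoD libraries, all below every control, and the change was -1.34 on the log2 scale (SE 0.16, adjusted p 3.19e-16). Atf5 measured 1928, 1947 and 1771, also clear of the controls, and its log2 fold change was again -1.34 (SE 0.12, adjusted p 8.19e-28). Their targets Trib3 and Chac1 went lower still. Trib3 had 82.0, 52.9 and 74.4 counts, or -2.05 on the log2 scale (SE 0.19, adjusted p 2.2e-24). Chac1 had 38.4, 52.0 and 42.2, or -2.15 on the log2 scale (SE 0.20, adjusted p 4.27e-25). For both, no CytoD library came near the lowest control.

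The other 6 members were not called in CytoD. Ddit4 came nearest on the upper side, with 1539, 1469 and 1529 counts, all above the controls, and a change of 0.69 on the log2 scale (SE 0.14, adjusted p 4.57e-06) that did not reach the fold minimum. Atf3 had 71.6, 74.7 and 134.7 counts, with CytoD replicate 3 well above its partners, and a change of 0.69 on the log2 scale (SE 0.25, adjusted p 0.0157). Ddit3 (-0.36, adjusted p 0.147), Nupr1 (-0.45, adjusted p 0.0681), Ppp1r15a (-0.14, adjusted p 0.703) and Sesn2 (0.20, adjusted p 0.159) gave small log2 fold changes with errors of 0.12 to 0.25. Haematopoietic markers summed to 256 to 266 counts in CytoD libraries against 104 to 166 in controls, with Ptprc, Itgam, Adgre1 and Cd3e at 0 in both groups, and their part in these values was not tested.

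CK666 and CytoD share the control libraries, so their effects were also set against each other directly. In CK666 against CytoD cells 8 members were higher and none lower, where 5.08% of 15038 genes tested were higher and 6.74% lower. Trib3 differed most, by 104-fold. Chac1 was 35.8-fold higher in CK666 (5.16 on the log2 scale, SE 0.19, adjusted p 4.47e-155), and Ddit3 25.7-fold higher (4.68 on the log2 scale, SE 0.20, adjusted p 2.59e-122). Atf4 itself differed less, by 6.84-fold (2.77, SE 0.16, adjusted p 4.32e-68). The 2 mTORC1 inhibitors were the exceptions: Sesn2 (0.91, SE 0.11, adjusted p 5.68e-14) and Ddit4 (0.87, SE 0.14, adjusted p 2.5e-09) were higher in CK666 on the log2 scale but under the fold minimum.

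**Figure D3:**
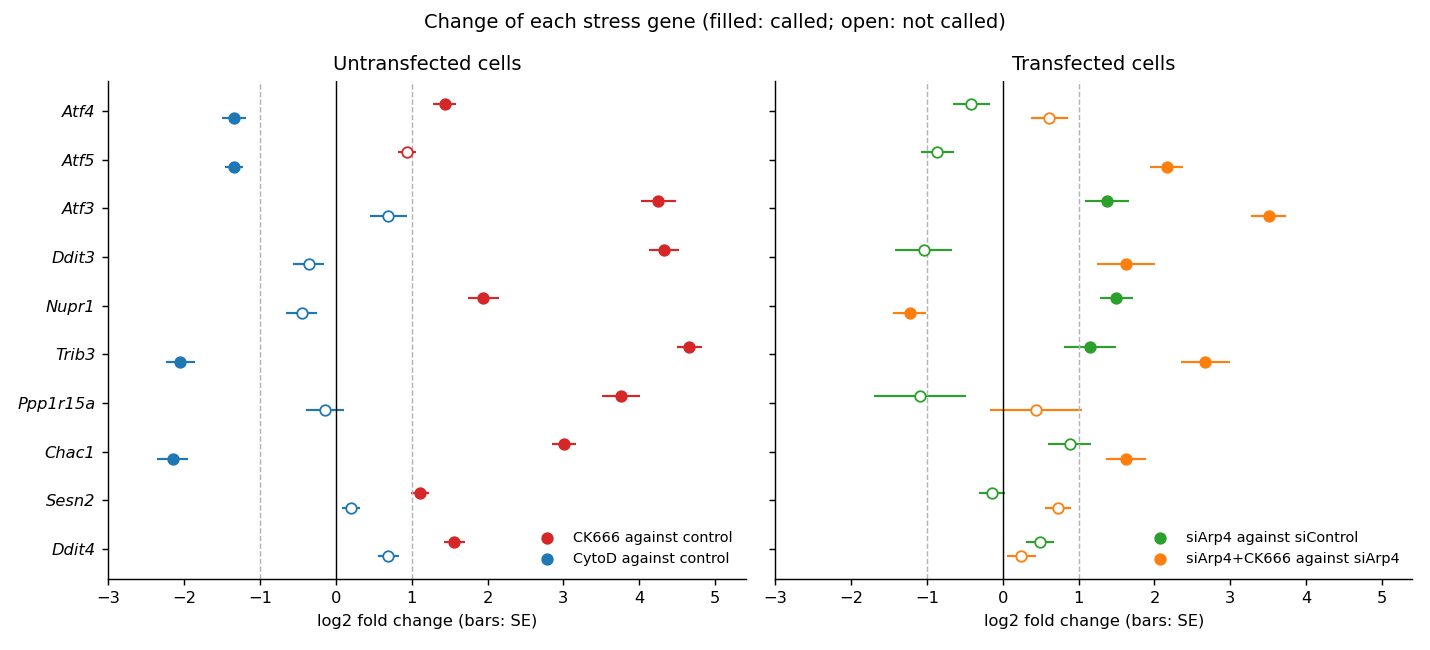
Log2 fold change of each member with its SE, for CK666 and CytoD against control (left) and for siArp4 against siControl and siArp4+CK666 against siArp4 (right); filled points were called and dashed lines mark the fold minimum. With CK666 9 members were called higher and with CytoD 4 lower, while Nupr1 was called higher in siArp4 and lower when CK666 was added.

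Transfected control cells began from another baseline. In siControl against control cells 3 members were higher and 4 lower, where 14.1% of 14491 genes tested were higher and 10.1% lower. Ddit4 had 8142, 6766 and 10014 counts in siControl libraries, 8.91-fold above the untransfected controls with no overlap (log2 fold change 3.15, SE 0.15, adjusted p 1.75e-92). Nupr1 had 1380, 2130 and 2140, all above the controls (log2 fold change 1.90, SE 0.22, adjusted p 4.25e-17). The 4 lower members were Chac1, at 37.6, 49.1 and 58.0 (-2.03, SE 0.22, adjusted p 1.91e-18), Trib3, at 42.6, 108.6 and 75.8 (-1.94, SE 0.28, adjusted p 2.11e-11), Atf3, at 20.0, 14.2 and 30.9 (-1.38, SE 0.29, adjusted p 7.33e-06), and Atf5, at 1516, 2403 and 2189 (-1.22, SE 0.17, adjusted p 9.28e-12). None of these 4 overlapped the controls. Transfection and experiment cannot be told apart in these values.

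The siControl libraries also differed among themselves. Ppp1r15a measured 298, 1993 and 724, a range that overlapped the untransfected controls although the gene was called higher (log2 fold change 1.69, SE 0.51, adjusted p 0.00275), and without siControl replicate 2 the log2 fold change was 0.72 (adjusted p 0.188). Ddit3 measured 523, 1633 and 896, and Atf4 2657, 4894 and 3970. In all 3 genes replicate 2 was highest and replicate 1 lowest. Mitochondrial transcripts took 1.30% of the counts in siControl replicate 2 and at most 2.65% in its partners, and the part of this difference was not tested. Comparisons with siControl below rest on these libraries.

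Arp4 knockdown alone moved few members. In siArp4 against siControl cells Nupr1, Atf3 and Trib3 rose and none fell, where 6.69% of 15415 genes tested rose and 9.49% fell, and the median log2 fold change of the members was 0.18 against -0.05 over all genes. Nupr1 had 5541, 5695 and 4966 counts, all well above siControl, a change of 1.50 on the log2 scale (SE 0.22, adjusted p 1.37e-10). Atf3 had 57.9, 60.8 and 56.5, clear of siControl, at 1.37 on the log2 scale (SE 0.29, adjusted p 2.19e-05). Trib3 had 183, 189 and 132, above all siControl libraries, or 1.15 on the log2 scale (SE 0.34, adjusted p 0.00308). This last call was not firm, since leaving out siControl replicate 1 brought the log2 fold change to 0.86, and the adjusted p was 0.0186 without siControl replicate 3, 0.0283 without siArp4 replicate 1 and 0.0323 without siArp4 replicate 2. Mitochondrial transcripts took 2.67% to 3.26% of counts in siArp4 libraries against 1.30% to 2.65% in siControl, and the part of this difference was not tested.

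Neither master factor was called. Atf4 had 3031, 3060 and 2674 counts in siArp4, inside the range of siControl (log2 fold change -0.41, SE 0.24, adjusted p 0.18). Atf5 had 1115, 1259 and 1031, below all siControl libraries, with a change of -0.86 on the log2 scale (SE 0.22, adjusted p 0.000454) short of the fold minimum, which it passed without siControl replicate 1 (-1.03, adjusted p 8.44e-08). Ddit3, at 513, 569 and 413, overlapped siControl (-1.04, SE 0.38, adjusted p 0.0201), as did Ppp1r15a, at 518, 634 and 272 (-1.09, SE 0.61, adjusted p 0.156). Both values turned on single siControl libraries. Without siControl replicate 1 both genes passed the test as lower, at -1.36 for Ddit3 (adjusted p 2.43e-05) and -1.53 for Ppp1r15a (adjusted p 0.00662), and without siControl replicate 2 they stood at -0.55 (adjusted p 0.123) and -0.15 (adjusted p 0.848). Ddit3 was also called lower in the fit of all 18 libraries (-1.03, adjusted p 0.00473). Chac1 had 111.5, 81.9 and 76.0 counts, above siControl, at 0.88 (SE 0.29, adjusted p 0.00898), under the fold minimum. Ddit4 (0.49, SE 0.19, adjusted p 0.0267) and Sesn2 (-0.14, SE 0.17, adjusted p 0.576) were not called.

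When CK666 was added to knockdown cells, 5 members rose and 1 fell against siArp4, where 1.63% of 14098 genes tested rose and 4.12% fell. Atf3 rose most, to 603, 654 and 709 counts, 11.4-fold above siArp4 (3.51 on the log2 scale, SE 0.23, adjusted p 6.32e-48). Trib3 rose to 836, 1077 and 1264 (2.67, SE 0.32, adjusted p 1.75e-14), and Atf5 to 4276, 4964 and 5811 (2.16, SE 0.22, adjusted p 5.44e-21). Neither gene overlapped its siArp4 values. Chac1 reached 240.0, 261 and 323 (1.62, SE 0.27, adjusted p 4.59e-08), and Ddit3 1198, 1474 and 1886 (1.62, SE 0.38, adjusted p 0.0003), though the Ddit3 call was lost with edgeR (adjusted p 0.0247). Nupr1 went the other way, falling to 1886, 2362 and 2598 (-1.23, SE 0.22, adjusted p 5.91e-07), which overlapped the siControl values.

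The remaining members gave smaller differences. Sesn2 was at 2223, 2001 and 1849 against 1296, 1172 and 1244 in siArp4, without overlap but under the fold minimum (0.73, SE 0.17, adjusted p 0.000369). Atf4 was at 3691, 4496 and 5073, above all siArp4 libraries, at 0.61 on the log2 scale (SE 0.24, adjusted p 0.069). Ppp1r15a, at 352, 559 and 1008, overlapped siArp4 (0.44, SE 0.61, adjusted p 0.767). Ddit4 was already high in siArp4, at 12149, 11956 and 11614, and measured 12576, 13893 and 15436 with CK666, just above those values (0.25, SE 0.19, adjusted p 0.474).

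Set against siControl, which both knockdown comparisons share, siArp4+CK666 cells had 4 members higher and none lower, where 8.06% of genes tested were higher and 12.4% lower. Atf3 differed most, at 29.4-fold. Trib3 was 14.1-fold (log2 fold change 3.82, SE 0.33, adjusted p 8.96e-29), Chac1 5.68-fold (2.51, SE 0.28, adjusted p 8.3e-18) and Atf5 2.46-fold higher (1.30, SE 0.22, adjusted p 2.27e-08). Atf4 did not differ beyond its error (0.20, SE 0.24, adjusted p 0.548), so these 4 genes stood above siControl while the Atf4 transcript overlapped it. Ddit3 (0.58, SE 0.38, adjusted p 0.222) and Ppp1r15a (-0.65, SE 0.60, adjusted p 0.419) overlapped siControl as well. Both depended on siControl replicate 2, without which Ddit3 was called higher at 1.07 (adjusted p 0.000766) and Ppp1r15a stood at 0.30 (adjusted p 0.67). The mitochondrial share of counts was 2.86% to 3.36% in siArp4+CK666, 1.30% to 2.65% in siControl and 1.36% to 1.88% in CK666 libraries. The part of these differences in the values was not tested.

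The effect of CK666 in knockdown cells was then tested against its effect in untransfected cells. It differed for 7 members, being lower in knockdown cells for 6 and higher for 1, where the difference was negative in 2.52% and positive in 1.9% of 13511 genes tested. Ppp1r15a went from 13.5-fold to 1.36-fold, a difference of -3.31 on the log2 scale (SE 0.73, adjusted p 0.000139). Ddit3 went from 20.0-fold to 3.08-fold (difference -2.70, SE 0.45, adjusted p 1.45e-07). The same direction held for Trib3 (-1.99, SE 0.37, adjusted p 2.93e-06), Chac1 (-1.39, SE 0.28, adjusted p 1.95e-05) and Ddit4 (-1.32, SE 0.21, adjusted p 5.39e-08). Nupr1 turned its direction, from a rise of 3.85-fold to a fall of 2.34-fold (difference -3.17, SE 0.30, adjusted p 8.69e-23). Atf5 was the single member with a larger effect in knockdown cells, 4.47-fold against 1.92-fold (difference 1.22, SE 0.24, adjusted p 1.59e-05).

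Atf3 responded strongly in both settings, 19.1-fold and 11.4-fold, and the difference of -0.75 did not pass the test (SE 0.32, adjusted p 0.112). Atf4 (-0.82, SE 0.29, adjusted p 0.0404) and Sesn2 (-0.39, SE 0.17, adjusted p 0.134) were not called either. The 2 settings differ in transfection and experiment as well as in Arp4, and these cannot be told apart. Because starting levels differed, a smaller fold was not always a lower level reached. Ddit4 was at 13968 ± 1431 (SD, n = 3) in siArp4+CK666 and at 2724 ± 491 in CK666 cells, whereas Ddit3 was at 1519 ± 347 and 11379 ± 3660.

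**Figure D4:**
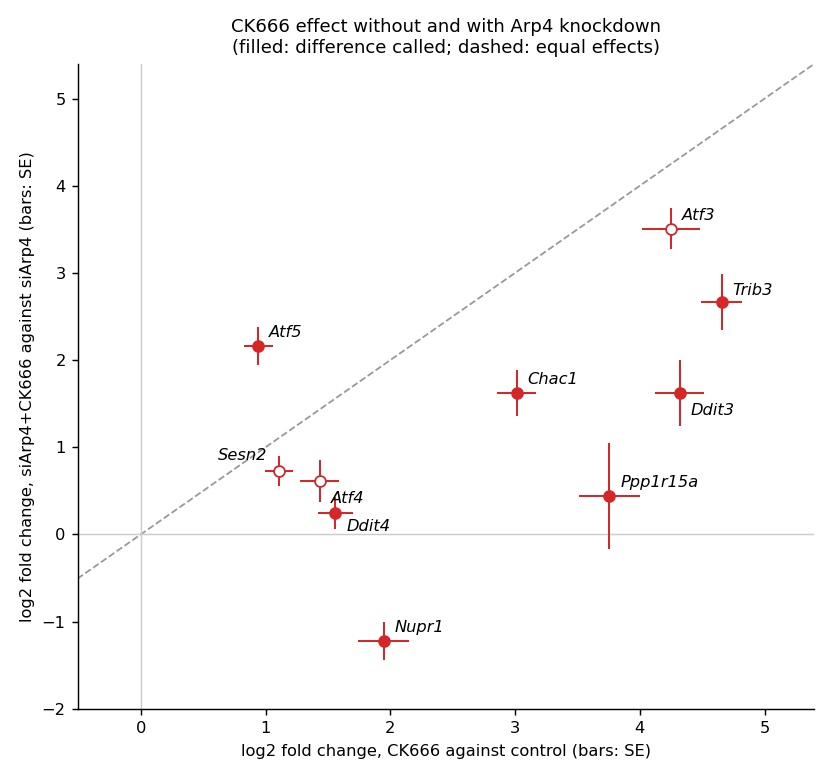
Log2 fold change of each member with CK666 in untransfected cells (horizontal) and in siArp4 cells (vertical), with SE bars; the dashed line marks equal effects and filled points were called different. Atf5 lies above the line, Nupr1 is below 0 on the vertical axis, and Ppp1r15a and Ddit3 lie far below the line.

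The rest of the pathway was read from lists of known genes. The 4 eIF2 alpha kinases, which start the response, were all expressed and none was called with CK666 or CytoD. In knockdown cells CK666 raised 1 of them, Eif2ak4, the kinase GCN2 that senses uncharged tRNA, from 529, 524 and 644 to 1318, 1194 and 991 counts (log2 fold change 1.07, SE 0.24, adjusted p 0.000232). Of 9 genes for eIF2, its exchange factor eIF2B and the constitutive phosphatase subunit, none was called with CK666. CytoD lowered 3 of the 9 (Eif2s1, Eif2s2, Eif2b3) and siArp4 lowered 3 (Eif2s2, Eif2s3x, Eif2b5). Genes named here and below for CytoD, for siArp4 or for the difference between settings were named after their values were seen.

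ATF4 partners of the C/EBP family gave 2 rises among 5 tested with CK666. Cebpb measured 1778, 1537 and 1617 in controls and 6968, 3543 and 4153 with CK666 (1.59 on the log2 scale, SE 0.23, adjusted p 6.19e-11), and Cebpg, a common partner of ATF4, gave 1.04 (SE 0.16, adjusted p 3.01e-10). Cebpa was called higher with CytoD. In a list of 14 close relatives of the members, none rose with CK666 and Trib2 fell (-1.25, SE 0.17, adjusted p 2.14e-12). Over all genes tested 4.89% rose and 6.06% fell. By adjusted p alone 4 of the 14 were higher and 2 lower. CytoD raised Sesn1 and Sesn3 in that list, while siArp4 raised Trib1 and lowered Trib2, Sesn1 and Ddit4l. The difference between the CK666 effects was called for Trib2, as positive, and for none of the kinase, eIF2 and C/EBP genes.

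ATF4 targets in amino acid metabolism and transport were called in 1 direction with each drug. Of 19 tested, 10 rose and none fell with CK666, at a median log2 fold change of 1.27. With CytoD 12 fell and none rose, at a median of -1.10, against -0.40 for the members. In siControl against control cells 12 were also lower and none higher, at a median of -1.58. Slc7a11, the cystine transporter, went from 97.6, 98.7 and 90.8 to 894, 1701 and 1381 counts with CK666 (3.80 on the log2 scale, SE 0.25, adjusted p 2.52e-50). Cth, which makes cysteine, went from 62.9, 57.0 and 52.5 to 715, 580.2 and 609 (3.48, SE 0.19, adjusted p 6.98e-69). Slc3a2, the shared heavy chain of several amino acid transporters, gave 2.65 (SE 0.16, adjusted p 4.69e-59). In knockdown cells CK666 raised 5 of 19, led by Slc7a11 (2.97, SE 0.32, adjusted p 7.74e-18), Gpt2, an alanine aminotransferase (1.39, SE 0.24, adjusted p 3.73e-07), and Slc3a2 (1.38, SE 0.28, adjusted p 1.97e-05). The CK666 effect was lower there for 5 (Cth, Slc1a4, Slc3a2, Pycr1 and Gpt2) and higher for none. siArp4 alone raised Slc1a4 and lowered Slc7a1.

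Among 20 other ATF4 targets, secreted factors and tRNA synthetases included, 10 rose and none fell with CK666, at a median of 0.98. Fgf21, a secreted stress hormone, was at 0 in all controls and at 15.1, 19.7 and 8.97 counts in CK666 libraries, at least 5.04-fold above a floor of 3 counts per control library. Placing it at that bound left the median at 0.98. Gdf15, another secreted stress factor, went from 1785, 1865 and 1842 to 19347, 9463 and 11068 (2.88, SE 0.22, adjusted p 6.65e-36), and Ero1l, an oxidase of the endoplasmic reticulum, gave 2.36 (SE 0.11, adjusted p 1.86e-103). CytoD raised 1 of 19 (Bcl2l11) and lowered 2 (Cars and Gars), and siArp4 raised Ero1l and lowered Ndrg1. In knockdown cells CK666 raised none of 19 and lowered Ndrg1 (-1.61, SE 0.42, adjusted p 0.00143). The CK666 effect was lower there for 4, namely Ndrg1, Ero1l, Bbc3 and Wars.

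The other 2 branches of the unfolded protein response, IRE1 and ATF6, gave fewer calls. With CK666, 3 of 19 rose and none fell, at a median of 0.13: the chaperone Hspa5 (1.38, SE 0.12, adjusted p 1.17e-28), the IRE1 sensor gene Ern1 (1.13, SE 0.22, adjusted p 3.05e-06) and the degradation factor Herpud1 (1.02, SE 0.12, adjusted p 7.8e-17). CytoD called none of 19, and siArp4 lowered Sdf2l1 of 20. In knockdown cells CK666 raised Atf6 (1.03, SE 0.24, adjusted p 0.000337), and the CK666 effect was lower there for Hspa5.

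Among 8 genes of the mitochondrial stress relay and mitochondrial chaperones, CK666 raised the protease Lonp1 (1.50, SE 0.09, adjusted p 3.04e-55), with a lower effect in knockdown cells, and CytoD lowered Hspd1. Of 10 p53 targets that are not members, CK666 raised Trp53inp1 (1.01, SE 0.16, adjusted p 3.36e-09), as did CytoD, and siArp4 lowered Eda2r and Phlda3. CK666 in knockdown cells raised Zmat3, a p53-induced RNA-binding protein gene (1.03, SE 0.23, adjusted p 0.000162). The p53 list was read because p53 can also induce Sesn2, Ddit4 and Atf3. The part of p53 in their values was not tested.

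**Figure D5:**
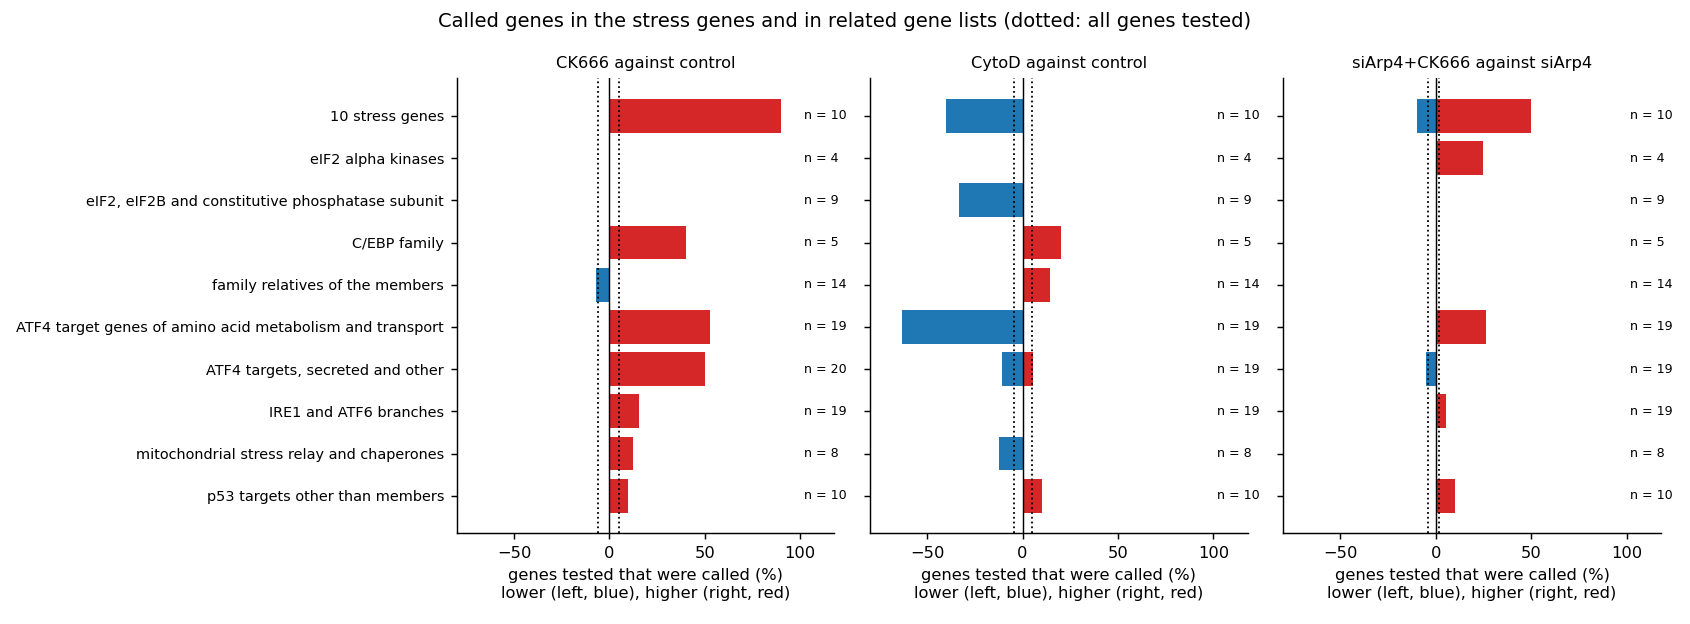
Percent of tested genes called higher (red, right of 0) and lower (blue, left of 0) for the 10 members and 9 lists of related genes, in 3 comparisons; n is the number tested and dotted lines are the percent called over all genes tested. With CK666 the members and the 2 lists of ATF4 targets reach furthest to the right, and with CytoD the amino acid list reaches furthest to the left.

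The members did not share a single pattern over the 6 groups. The mean of their z-scores per library was 1.30 to 1.55 in CK666, 0.39 to 0.57 in siArp4+CK666 and below 0 in the other 12 libraries, with CytoD lowest at -0.77 to -0.74. Trib3 (Pearson r = 0.97 with that mean over 18 libraries), Ddit3 (0.95) and Chac1 (0.94) followed it closely. Nupr1 (0.39) and Ddit4 (0.17), whose levels were high in transfected cells, followed it least. Each member is part of that mean, so part of its r is built in. The mean was also compared with 10319 genes with a mean of at least 100 normalized counts, members included. The closest of the others were Cyb5r1, of the cytochrome b5 reductase family (0.97), and Sars, the cytosolic seryl-tRNA synthetase (0.96). Next came Slc25a33, a mitochondrial carrier of pyrimidine nucleotides (0.96), Them4, of the thioesterase family (0.95), and Slc3a2 (0.94). These are descriptions over libraries that share treatment groups, and Sars and Slc3a2 were also on the ATF4 lists.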

How the data were processed

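RNA-seq of 18 libraries (6 groups, 3 separate preparations each) was read from 1 table of 54347 genes. The authors deposited expected counts per gene, estimated from unstranded paired reads with Salmon 1.2.1 on GENCODE vM25 (GRCm38), with no scaling between samples; how transcripts were summed to genes is not given in the sources used here. Counts were rounded to whole numbers. Symbols came from GENCODE vM21 (54094 identifiers matched, 253 did not).

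DESeq2 1.42.0 (R 4.3.3, Wald test, group as the only term) was fitted to the 9 libraries of each experiment. The CK666 effects in the 2 settings, and siControl against control, were compared in a fit of all 18. Adjusted p-values are Benjamini-Hochberg values over all genes tested, calls needed an absolute log2 fold change over 1 and an adjusted p below 0.01, and tests were two-sided. The test was also run on simulated counts, whose outcome is not given here. Likeness used log2 CPM. Promoters are RefSeq's (GRCm38.p6, all 10 members matched, Atf5 with 2 promoters).

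Members and lists were chosen with earlier results of these data known. Genes named beyond the members are Actl6a, up to 3 called genes per list with the largest change with CK666 and with siArp4+CK666 against siArp4, and the 5 genes most like the members' mean. Alternatives were other scaling (TMM), a low-count filter (10 counts in 3 libraries), edgeR 4.0.16, other fold minimums, other sets of libraries, a replicate block and leaving out each library. Same-numbered control and CK666 libraries deviated together from their group means (correlations 0.29, 0.23 and 0.16). The main fits held no pairs, and replicate number entered only in the block, which was run for every comparison.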

Additional observations from a re-analysis of the deposited data

Results flagged for a closer look

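For 7 members the effect of CK666 differed between siArp4 cells and untransfected cells in a direct test of the difference (DESeq2, log2 scale, siArp4 minus untransfected). The difference was -3.31 for Ppp1r15a, -3.17 for Nupr1, -2.70 for Ddit3, -1.99 for Trib3, -1.39 for Chac1, -1.32 for Ddit4 and 1.22 for Atf5. Nupr1 was the member whose effect changed sign, and Atf5 the one whose effect was larger in knockdown cells. All 7 remained called when any 1 of the 12 libraries of the 4 groups compared was left out. With edgeR 6 of them remained, and Ppp1r15a did not (adjusted p 0.0126). Knockdown, transfection and experiment cannot be told apart in these differences.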

How the results depend on the processing

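Of 1160 alternative values of the members' log2 fold changes 1102 kept direction and side of the threshold, 18 newly passed it, 34 no longer passed, and 6 changed sign, none of them a call. With 1 library left out, Ppp1r15a ran from -1.12 to 0.30 in siArp4+CK666 against siControl (above 0 without siControl replicate 2) and from -0.034 to 0.73 against siArp4 (below 0 without siArp4+CK666 replicate 3), and Sesn2 from -0.067 to 0.12 in siControl against control (below 0 without control replicate 3 and without siControl replicates 1 and 3). With edgeR Sesn2 stood at -0.0011 there. Counts are given in the order CK666 against control, CytoD against control, CK666 against CytoD, siArp4 against siControl, siArp4+CK666 against siControl, siArp4+CK666 against siArp4, the difference between CK666 effects, and siControl against control. Members called ranged from 9 to 10, 4 to 4, 8 to 9, 2 to 5, 4 to 5, 6 to 6, 7 to 7 and 6 to 8 when 1 library was left out, and listed genes from 26 to 28, 21 to 23, 49 to 51, 13 to 27, 24 to 37, 4 to 10, 9 to 13 and 27 to 44. The 5 members and 27 listed genes for siArp4 came without siControl replicate 1. In siArp4+CK666 against siArp4 the count of listed genes called was 9, and 5 without siArp4 replicate 1, 4 without siArp4 replicate 2, 5 without siArp4+CK666 replicate 1 and 3 with edgeR.

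When the test itself required a log2 fold change over 1, members called went to 7 for CK666 (Atf4, adjusted p 0.153, and Sesn2, adjusted p 1.0, were lost), 2 for CytoD, 0 for siArp4, 3 for siArp4+CK666 against siControl, 3 for siArp4+CK666 against siArp4, 1 for the difference (Nupr1) and 3 for siControl, and listed genes to 12 for CK666, 7 for CytoD, 5 and 6 for siArp4 and siArp4+CK666 against siControl, 1 for siArp4+CK666 against siArp4, 4 for the difference and 10 for siControl. With no fold minimum, members called for siArp4 were 5, and listed genes were 57 for CK666, 54 for CytoD, 33 and 49 for siArp4 and siArp4+CK666 against siControl, 21 against siArp4, 23 for the difference and 62 for siControl. The block on replicate number left the counts of members called as they were (9, 4, 8, 3, 4, 6, 7 and 7, in the order above). Within an experiment same-numbered libraries correlated in their deviations at -0.58 to 0.74, with 6 of 18 pairs over 0.1. TMM scaling shifted the median of all genes by at most 0.025. The lowest member levels were those of Atf3 in siControl, at 14.2 to 30.9. The cause of these changes was not tested.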

Other observations

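In 3 of the 6 groups a single replicate was highest or lowest for 9 of the 10 members. CK666 replicate 1 was the highest of its group for 9 of 10 members and the lowest for Sesn2. In siArp4+CK666 cells replicate 3 was highest and replicate 1 lowest for 9 members, again with Sesn2 the reverse, and siArp4 replicate 3 was lowest for 9. In CytoD the highest replicate was spread 3, 4 and 3 over replicates 1 to 3, and in control cells 4, 5 and 1. Over the 18 libraries, the deviations of Ddit3 from its group means had a Pearson r of 0.95 with those of Ppp1r15a and 0.95 with those of Atf4. Those of Sesn2 ran opposite, at -0.86 with Ddit3, -0.84 with Atf4 and -0.83 with Ppp1r15a. Atf3 stood apart, at 0.03 with Atf4 and -0.16 with Ddit3. The points share libraries and were centred within groups of 3, and these values are descriptions with no test.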
